A study of Homo sapiens with 6 samples.

Results

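The AP-1 transcription factor family was examined through 10 genes (FOS, FOSB, FOSL1, FOSL2, JUN, JUNB, JUND, ATF3, MAFF and MAFK) out of 58884 gene identifiers. The members were listed by name as a gene family, with earlier results of these data known. Each matched a single row of the counts, and all 10 passed the filter on low counts. FOSB, JUNB and JUND lie on chromosome 19 and are also given separately.

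The libraries came from liver metastases of SW480 cells, an established line of human colorectal cancer, grown in NSG mice, which are immunodeficient and lack functional T, B and NK cells but keep myeloid cells. The cells carried a control guide RNA (sgCtrl, 3 libraries) or a guide RNA against ITPR3 (sgITPR3, 3 libraries), and the loss of the protein had been checked by Western blot per the labels. In both groups cells were injected into the portal circulation, and tumour cells were recovered by collagenase digestion, a density gradient and depletion of mouse cells before lysis. Whether the cells were a clone or a pool, the age of the mice, and whether each library came from its own mouse are not stated by the labels, and p-values thus measure only the spread between these samples, which may be technical.

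AP-1 is a dimer of basic leucine zipper (bZIP) proteins. Fos proteins pair with Jun proteins, whereas Jun proteins can also pair with each other, and the dimers bind short DNA elements related to those of the CREB and ATF factors. Many AP-1 genes are immediate early genes: growth factors, calcium signals, stress and tissue dissociation switch them on within minutes, through ERK, JNK and p38 kinases, and their short-lived mRNAs disappear quickly afterwards. In colorectal cancer, AP-1 is known as an output of ERK signalling.

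Promoters of the members are shown because the same short elements recur in genes whose differences were of unlike size. RefSeq promoters (GRCh38.p14, 250 bases before to 50 after the start site, written 5′ to 3′ on the strand of the gene) were found for 8 of the 10 members, FOSL1 and MAFK being the other two. Capitals mark TGACGTCA (the cyclic AMP response element), its shorter part TGACGT, the variant TGACATCA, and TGANTCA (the classical AP-1 element), each searched on both strands. Those of 6 members that hold these letters follow, ATF3 being the one further member with a match.
FOS, chr14:75278578-75278877, plus strand: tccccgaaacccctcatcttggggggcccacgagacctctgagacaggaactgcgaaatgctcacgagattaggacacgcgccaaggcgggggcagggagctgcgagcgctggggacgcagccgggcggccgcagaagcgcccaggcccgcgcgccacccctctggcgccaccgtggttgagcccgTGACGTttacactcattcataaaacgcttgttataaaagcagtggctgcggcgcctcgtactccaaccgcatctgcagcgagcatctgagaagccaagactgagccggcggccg
FOSB, chr19:45467746-45468045, plus strand: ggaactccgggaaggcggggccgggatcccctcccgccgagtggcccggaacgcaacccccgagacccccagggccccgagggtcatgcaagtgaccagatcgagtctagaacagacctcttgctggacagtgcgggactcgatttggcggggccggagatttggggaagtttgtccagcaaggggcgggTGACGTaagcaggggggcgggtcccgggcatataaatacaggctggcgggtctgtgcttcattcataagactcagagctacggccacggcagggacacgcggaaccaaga
FOSL2, chr2:28392608-28392907, plus strand: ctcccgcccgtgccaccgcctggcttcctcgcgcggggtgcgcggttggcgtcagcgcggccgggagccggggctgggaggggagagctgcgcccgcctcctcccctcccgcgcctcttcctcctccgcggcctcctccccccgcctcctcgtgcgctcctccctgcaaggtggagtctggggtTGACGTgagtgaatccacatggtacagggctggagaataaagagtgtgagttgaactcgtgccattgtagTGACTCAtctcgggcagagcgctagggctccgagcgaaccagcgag
JUN, chr1:58783998-58784297, minus strand: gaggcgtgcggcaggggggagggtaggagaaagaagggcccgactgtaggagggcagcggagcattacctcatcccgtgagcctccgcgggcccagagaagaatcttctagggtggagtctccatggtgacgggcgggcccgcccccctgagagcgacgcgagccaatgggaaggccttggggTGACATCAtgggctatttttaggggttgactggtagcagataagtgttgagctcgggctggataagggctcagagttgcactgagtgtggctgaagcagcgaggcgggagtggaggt
JUND, chr19:18281573-18281872, minus strand: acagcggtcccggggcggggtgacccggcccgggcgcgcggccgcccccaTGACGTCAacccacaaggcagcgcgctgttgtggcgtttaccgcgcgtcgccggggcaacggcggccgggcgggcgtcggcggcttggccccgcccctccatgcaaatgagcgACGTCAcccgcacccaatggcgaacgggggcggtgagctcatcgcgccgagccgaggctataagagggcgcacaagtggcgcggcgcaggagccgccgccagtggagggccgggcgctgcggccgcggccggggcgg
MAFF, chr22:38201744-38202043, plus strand: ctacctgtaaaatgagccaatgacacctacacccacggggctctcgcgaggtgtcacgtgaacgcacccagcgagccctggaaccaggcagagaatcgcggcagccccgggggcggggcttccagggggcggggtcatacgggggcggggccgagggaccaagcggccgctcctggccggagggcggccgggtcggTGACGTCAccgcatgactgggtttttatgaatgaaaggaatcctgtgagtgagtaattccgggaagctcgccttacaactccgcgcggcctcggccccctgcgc
TGACGT was found in 5 of the 8 promoters (FOS, FOSB, FOSL2, JUND and MAFF), against 8.32% of 27305 promoters of the same length. Only the first RefSeq promoter of each gene was counted, in members and background alike. ATF3 and MAFF each had a second RefSeq promoter, which held none of the marked elements. Every TGACGTCA also counts as a TGACGT. Measured from the start site, TGACGT began at base -64 in FOS, -60 in FOSB and -66 in FOSL2. In FOS and FOSB it was followed by a TATAAA, beginning at -33 and -30 respectively. The full TGACGTCA was present in JUND and MAFF, against 1.98% of promoters. TGACATCA was present in JUN at -67 and in ATF3, against 2.71% of promoters. This variant was added after the promoters were seen, so its presence here is no test against that share. TGANTCA was found only in FOSL2 among the 8, just after the start site, against 7.76% of promoters. The JUNB window holds none of the marked elements. The CArG box of serum response factor was found in none of the 8 windows, against 1.29% of promoters. Sites more than 250 bases before the start site were not searched, so these genes may still hold one further upstream. These matches are letters in a window, and no binding was measured here.

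The targeted gene was read first, as a check of the labels. ITPR3, which encodes a calcium release channel of the endoplasmic reticulum, was at 108, 93.9 and 94.2 CPM (counts scaled to a common library size) in sgCtrl and 39.4, 41.0 and 46.2 CPM in sgITPR3. All sgITPR3 libraries were below all sgCtrl libraries. Tags come from transcript ends, which the guide need not have edited, so this level does not measure remaining protein.

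All 10 AP-1 genes had a lower mean in sgITPR3 than in sgCtrl metastases, and 8 of the 10 passed the test. The test was edgeR's quasi-likelihood test over 15804 genes with Benjamini-Hochberg adjustment, at an adjusted p under 0.05. The background was 11.9% of all tested genes called lower, 17.1% among the 8963 genes averaging 10 CPM or more, as every member did. FOS, FOSB, FOSL1, JUN, JUNB, JUND, ATF3 and MAFK fell. FOSL2 and MAFF did not pass. None was called higher (background 11.6%), by edgeR, DESeq2 or limma-voom, and at an unadjusted p under 0.05 the number higher was also 0. The median log2 fold change of the 10 was -0.36, against 0.00086 over all genes tested. In 8 members the groups did not overlap, all with sgITPR3 lower, against a background of 19.7% (19.6% with sgITPR3 higher). FOSB and FOSL2 overlapped.

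**Figure D1:**
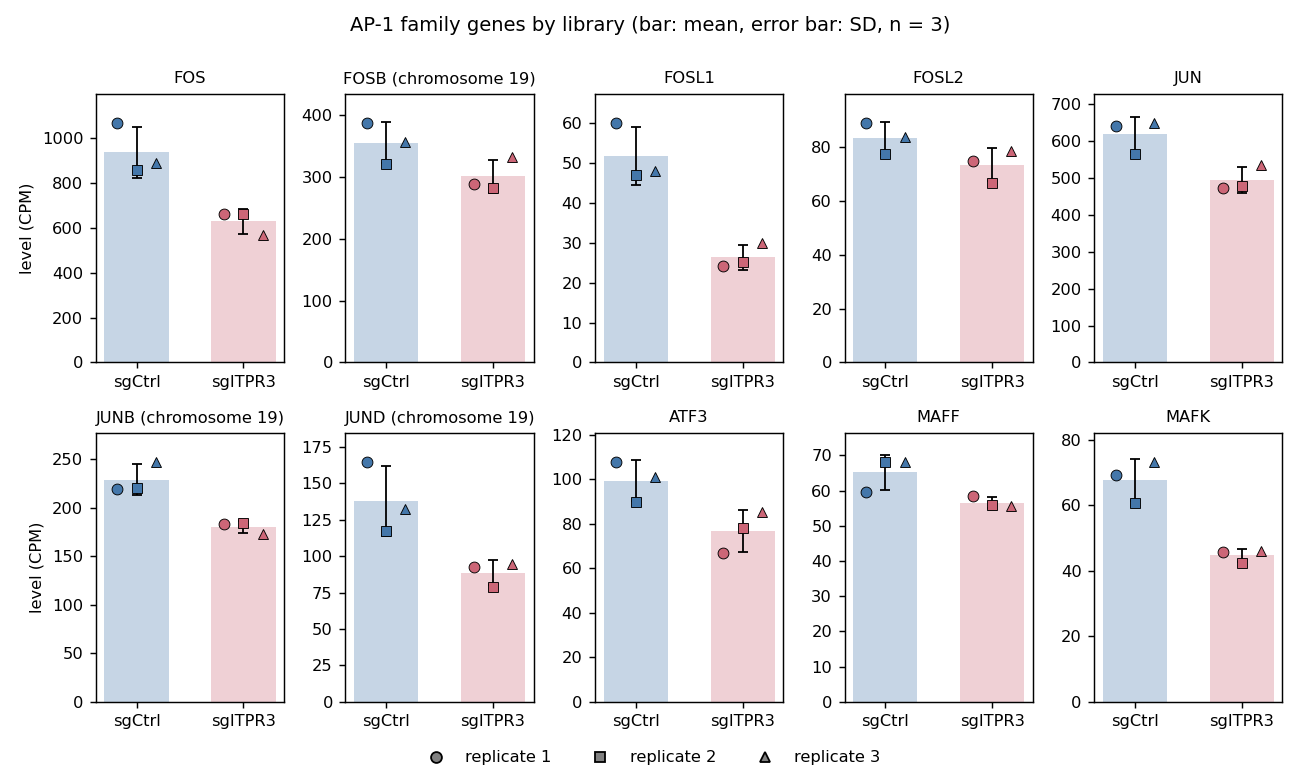
Level of each AP-1 family gene in CPM (vertical axis, starting at 0) in the 3 sgCtrl and 3 sgITPR3 libraries; points are libraries, marked by replicate number, bars are means and error bars are SD. Libraries of the 2 groups are apart for all genes but FOSB and FOSL2, and FOSL1 has the largest relative difference.

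Among the Fos genes, FOSL1 and FOS fell most. FOS (ENSG00000170345, chromosome 14, 75278774 to 75282230, GRCh38, plus strand) encodes the founding Fos protein, which needs a Jun partner to bind DNA. It was among the most abundant transcripts of these cells, ranked 104th of 15804 tested genes by its sgCtrl level. Its values were 1069.6, 859.7 and 888 CPM in sgCtrl replicates 1 to 3 and 661, 661 and 567 CPM in sgITPR3 replicates 1 to 3. Even the lowest sgCtrl library, replicate 2, stood well above the highest sgITPR3 library. The mean of FOS was lower by 1.49-fold (log2 fold change -0.58, SE 0.089, edgeR adjusted p = 3.24e-04).

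FOSL1 (ENSG00000175592, chromosome 11, 65892049 to 65900573, minus strand) encodes FRA1, a Fos protein without the strong activating end of FOS, known to be stabilised by ERK and tied to invasive behaviour of carcinoma cells. It was at 60.1, 47.0 and 47.9 CPM in sgCtrl and at 24.1, 25.0 and 30.0 CPM in sgITPR3. Again no library of one group reached the other. This was the largest difference of the family, 1.96-fold (log2 fold change -0.97, SE 0.110, edgeR adjusted p = 2.04e-05).

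FOSL2 (ENSG00000075426, chromosome 2, 28392448 to 28417312, plus strand) encodes FRA2, a relative of FRA1, and had the smallest log2 fold change of the family. Its levels were 89.0, 77.4 and 83.6 CPM in sgCtrl and 74.9, 66.7 and 78.5 CPM in sgITPR3. The groups overlapped, since sgITPR3 replicate 3 exceeded sgCtrl replicate 2. FOSL2 did not pass (95% interval -0.35 to -0.01 around a log2 fold change of -0.18, edgeR adjusted p = 0.112), although it did without sgCtrl replicate 2 (log2 fold change -0.24, edgeR adjusted p = 0.0435).

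All 3 Jun genes fell, with the largest log2 fold change for JUND. JUN (ENSG00000177606, chromosome 1, 58780788 to 58784327, minus strand) is a gene of a single exon for the main Jun protein, the target that gave JNK its name. It was at 639.8, 564 and 649 CPM in sgCtrl and 473, 477 and 536 CPM in sgITPR3. The 2 groups lay apart, with sgCtrl replicate 2 and sgITPR3 replicate 3 closest to each other. The difference was 1.25-fold (log2 fold change -0.32, SE 0.076, edgeR adjusted p = 0.00728). With the level of ALB, a hepatocyte transcript, as a covariate its log2 fold change was -0.18 and it no longer passed (edgeR adjusted p = 0.161).

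The chromosome 19 members were JUNB, JUND and FOSB, and all 3 were called lower. Of 1066 tested genes of that chromosome, 18.9% were called lower and 6.85% higher, against 11.4% and 12.0% on the other chromosomes, with median log2 fold changes of -0.09 and 0.0067. The 7 members on other chromosomes had a median of -0.37, with 5 called lower, and the 3 on chromosome 19 a median of -0.34. With scaling factors taken only from genes outside chromosome 19, 8 members were still called lower. Whether position on chromosome 19 has a part in these 3 differences was not tested.

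JUND (ENSG00000130522, chromosome 19, 18279760 to 18281622, minus strand) encodes the Jun protein usually present in unstimulated cells. It was at 165, 117 and 132 CPM in sgCtrl and 92.5, 78.9 and 94.4 CPM in sgITPR3. The sgCtrl libraries were spread widely, with replicate 1 at the top, but all were above the sgITPR3 libraries. JUND fell 1.56-fold (log2 fold change -0.64, SE 0.108, edgeR adjusted p = 6.51e-04).

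JUNB (ENSG00000171223, chromosome 19, 12791496 to 12793315, plus strand), an inducible Jun protein that activates transcription less strongly than JUN, was at 219, 220.4 and 247 CPM in sgCtrl and 183, 184 and 173 CPM in sgITPR3. Both groups were tight and apart from each other. The difference was 1.27-fold (log2 fold change -0.34, SE 0.070, edgeR adjusted p = 0.00250). JUNB shares 259 exon bases with HOOK2 on the opposite strand, outside the last 500 bases of JUNB, and HOOK2 was at 29.4 ± 5.84 and 29.4 ± 1.43 CPM (SD, n = 3).

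FOSB (ENSG00000125740, chromosome 19, 45467995 to 45475179, plus strand) encodes a Fos protein whose truncated splice form, ΔFosB, is long-lived. Its levels were 387, 321 and 357 CPM in sgCtrl and 289, 282 and 331 CPM in sgITPR3. The groups overlapped, sgITPR3 replicate 3 lying above sgCtrl replicate 2. FOSB passed by a narrow margin (log2 fold change -0.24, SE 0.083, edgeR adjusted p = 0.0495). It did not pass with RLE scaling (edgeR adjusted p = 0.0504), with a filter of 1 CPM (0.0531), with ALB as a covariate (0.529), or without sgCtrl replicate 1 (0.166), sgCtrl replicate 3 (0.0973), sgITPR3 replicate 1 (0.166) or sgITPR3 replicate 2 (0.204). Tags do not separate its splice forms.

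ATF3 (ENSG00000162772, chromosome 1, 212565334 to 212620777, plus strand) encodes a stress-induced bZIP protein that pairs with Jun proteins and represses many promoters as a homodimer. It was at 108, 89.7 and 101 CPM in sgCtrl and 66.9, 78.3 and 85.4 CPM in sgITPR3. The groups came close, at sgCtrl replicate 2 and sgITPR3 replicate 3, without overlap. ATF3 fell 1.29-fold (log2 fold change -0.37, SE 0.093, edgeR adjusted p = 0.00944). This call ended without sgITPR3 replicate 1 (log2 fold change -0.28, edgeR adjusted p = 0.0567) and with the ALB covariate (log2 fold change -0.21, edgeR adjusted p = 0.197).

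Of the small Maf genes, MAFK fell and MAFF did not pass. MAFF and MAFK encode short bZIP proteins without an activating domain, which pair with CNC factors such as NRF2 and with some AP-1 proteins. MAFK (ENSG00000198517, chromosome 7, 1530714 to 1543043, plus strand) was at 69.2, 60.6 and 73.1 CPM in sgCtrl and 45.7, 42.4 and 46.0 CPM in sgITPR3. The sgITPR3 libraries were nearly equal, and all lay under the sgCtrl range. MAFK fell 1.51-fold (log2 fold change -0.60, SE 0.082, edgeR adjusted p = 1.20e-04). MAFK overlaps, in its last 500 bases, exons of TMEM184A on the opposite strand, and without a stated strand setting their tags cannot be told apart. TMEM184A itself was at 30.7 ± 3.86 and 33.3 ± 0.776 CPM and did not pass (edgeR adjusted p = 0.403).

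MAFF (ENSG00000185022, chromosome 22, 38200767 to 38216511, plus strand), the stress-inducible small Maf gene, was at 59.5, 68.0 and 68.1 CPM in sgCtrl and 58.3, 55.8 and 55.5 CPM in sgITPR3. No values overlapped, but sgCtrl replicate 1 and sgITPR3 replicate 1 were almost equal. MAFF did not pass (log2 fold change -0.21, 95% interval -0.37 to -0.04, edgeR adjusted p = 0.0614), except without sgCtrl replicate 1 (log2 fold change -0.27, edgeR adjusted p = 0.0221). The remaining small Maf gene, MAFG, is no member and was named after its value was seen. It had a log2 fold change of 0.16 (edgeR adjusted p = 0.158).

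**Figure D2:**
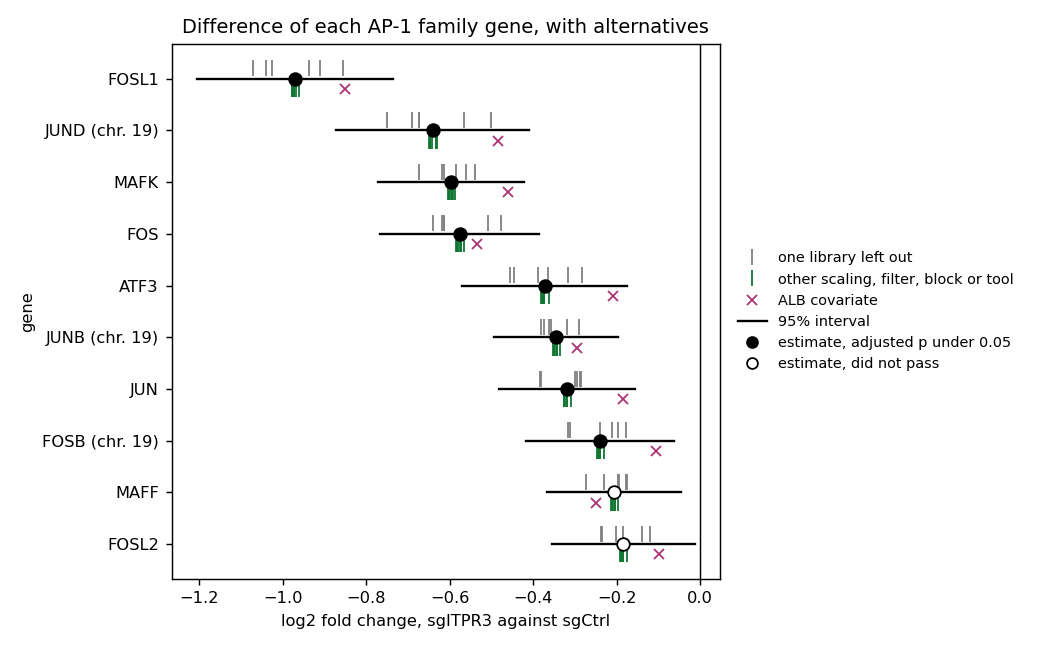
Log2 fold change of each AP-1 family gene, sgITPR3 against sgCtrl (horizontal axis), with its 95% interval; filled circles passed at an adjusted p under 0.05, ticks and crosses are alternative fits. All estimates and alternatives lie below 0, from FOSL1 at -0.97 to FOSL2 at -0.18, and the ALB covariate brings FOSB to -0.10.

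Levels of the members spanned a wide range, and their order was nearly the same in both groups. CPM of 3' tags are not divided by transcript length, because the library protocol takes tags from transcript ends. In sgCtrl the order of CPM levels was FOS, JUN, FOSB, JUNB, JUND, ATF3, FOSL2, MAFK, MAFF and FOSL1. Only the neighbours MAFK and MAFF, and MAFF and FOSL1, had overlapping ranges. In sgITPR3 MAFF stood above MAFK, with FOSL1 still last, and the ranges of JUND and ATF3 and of ATF3 and FOSL2 overlapped. Summed over the 10 genes, levels were 2866, 2426 and 2647 CPM in sgCtrl and 1969, 1952 and 1997 CPM in sgITPR3.

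FOSB and FOSL2 made up a larger share of Fos transcripts in sgITPR3 than in sgCtrl, a difference given without a test. FOSB gave 24.9% ± 0.930 of Fos gene CPM in sgCtrl and 29.2% ± 3.19 in sgITPR3. FOS gave 65.7% ± 1.05 and 61.1% ± 4.14 (SD, n = 3). FOSL1 gave 3.61% ± 0.130 and 2.57% ± 0.364, and FOSL2 5.85% ± 0.276 and 7.13% ± 0.676. Of Jun gene CPM, JUN held 62.7% ± 0.338 and 64.8% ± 1.77, and JUND 14.0% ± 1.82 and 11.6% ± 0.864. JUNB held 23.3% ± 1.64 and 23.6% ± 1.80, with overlapping groups. The groups did not overlap in these shares of FOS, FOSB, FOSL1, FOSL2, JUN or JUND. For JUN they nearly touched, at 63.11% in sgCtrl replicate 3 and 63.18% in sgITPR3 replicate 1. Shares within a family depend on each other.

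Unequal change of 2 members was tested on their ratio within each library, for 8 pairs, by a 2-sided exact permutation test of 3 against 3 libraries, which cannot give a p below 0.10. The ratio of FOSL2 to FOSL1 differed most. On the log2 scale it was 0.57, 0.72 and 0.80 in sgCtrl and 1.64, 1.41 and 1.39 in sgITPR3, a difference of 0.78 (exact permutation p = 0.10, adjusted p = 0.16). The log2 ratio of MAFF to MAFK was higher in sgITPR3 by 0.39 and that of FOSB to FOS by 0.33, while FOSL1 to FOS differed by -0.39 and JUND to JUN by -0.31. For these 4 pairs too the groups did not overlap, with the same exact permutation p. Without sgITPR3 replicate 3 the FOSB to FOS difference was 0.19, and without sgCtrl replicate 1 the JUND to JUN difference was -0.21. The groups overlapped for JUNB to JUN (difference -0.03, exact permutation p = 0.80) and ATF3 to JUN (-0.06, exact permutation p = 0.60). They also overlapped for summed Fos to summed Jun genes, with a difference of -0.10.

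**Figure D3:**
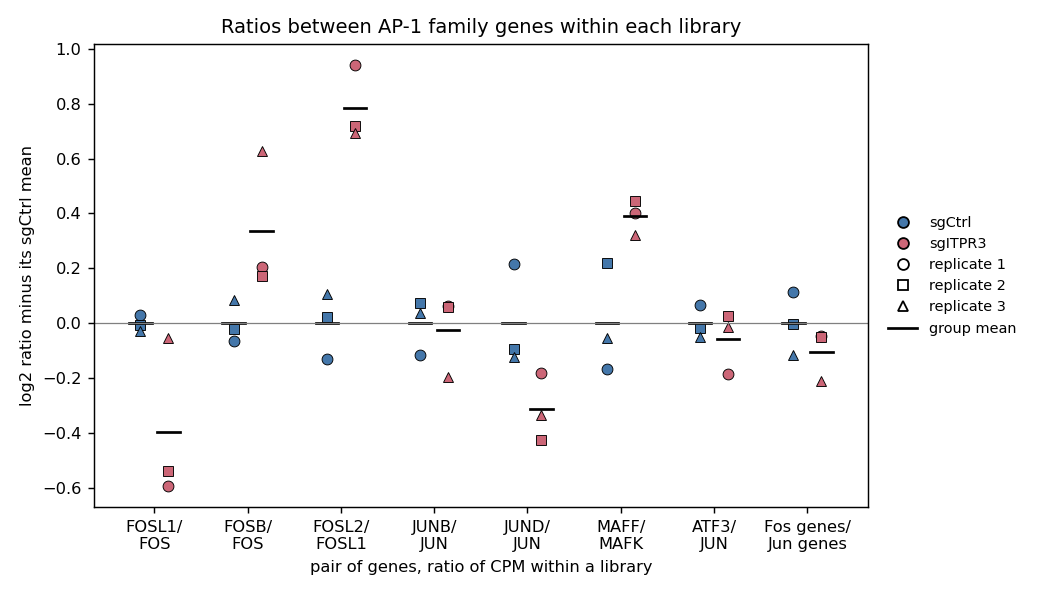
Log2 ratio of CPM of 2 AP-1 genes within each library, drawn relative to the sgCtrl mean of that pair (vertical axis), for 8 pairs; points are libraries and black lines group means. FOSL2 to FOSL1 is highest in sgITPR3 relative to sgCtrl, by 0.78, whereas JUNB to JUN and ATF3 to JUN overlap.

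Transcript ends of the members carry the ATTTA pentamer of AU-rich elements, which mark short-lived mRNAs for decay. In the longest GENCODE 29 3' untranslated region of each gene, FOS had 5 copies in 806 bases, or 6.20 per kb, and JUNB 2 copies in 500 bases, or 4.0 per kb. FOSL2 had the most copies, 9 in 4864 bases. FOSL1 and JUND had 1 copy each. The median over 19484 genes was 1.34 per kb, and 68.1% of genes had at least 1 copy. Per kb, 9 members lay above that median and FOSL1, at 1.19, below it. FOSB and JUND were close to the median, at 1.38 and 1.47. A longer form, TTATTTA followed by 2 bases of A or T, had 1 copy each in FOS, FOSL2 and MAFK and 2 in MAFF. It was not found in the other members, and its share over all genes was not counted.

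Hepatocyte markers varied widely between libraries. The host liver was of mouse, and reads were aligned to the human genome with an unstated handling of mouse reads. How far counts of these human genes follow the amount of host liver cells is therefore not known. Of 11 tested, 1 was called lower, 1 higher and 9 did not pass, with a median log2 fold change of 1.08. ALB was at 33.8, 169.7 and 21.6 CPM in sgCtrl and 232, 153 and 111 CPM in sgITPR3. SERPINA1, the one called lower, went from 43.3 ± 3.86 to 13.9 ± 2.17 CPM (log2 fold change -1.64, edgeR adjusted p = 1.51e-07), and APOA1 rose with overlapping groups. ALB itself did not pass (log2 fold change 1.14, edgeR adjusted p = 0.123). The library sgCtrl replicate 2, whose ALB lay within the sgITPR3 range, was the lowest sgCtrl library for 8 of the 10 AP-1 genes. The share of all tested genes lowest in that library was not counted, and a link with ALB was not tested. Of 14 hepatocyte markers 13 had counts (APOC3 at 0), summing to 78.2 to 351 CPM in sgCtrl and 217 to 398 CPM in sgITPR3. With ALB as a covariate 5 members were called lower (FOS, FOSL1, JUNB, JUND and MAFK), and all 10 log2 fold changes stayed negative. Without sgCtrl replicate 2, 9 members were called lower. Over all tested genes, 982 were called lower with ALB as a covariate and 2140 without sgCtrl replicate 2, against 1882 in the main fit.

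Markers of other liver and blood cell types were also read. Host cells were of mouse, so low counts of these human genes do not show that such host cells were absent. Of the erythroid markers, HBA1 and HBA2, near-identical globin genes whose reads may be shared, were tested and both rose. HBA1 went from 0.175 ± 0.137 to 1.22 ± 0.485 CPM (log2 fold change 2.78, edgeR adjusted p = 0.00274) and HBA2 from 0.759 ± 0.260 to 4.40 ± 0.833 CPM (log2 fold change 2.51, edgeR adjusted p = 2.56e-05). Neutrophil markers (5 of 7 with counts, ELANE and FCGR3B at 0) summed to 20.2 to 26.8 CPM in sgCtrl and 11.9 to 15.8 CPM in sgITPR3. Nearly all of this sum came from S100A9 and CXCR2, the only markers of that list to pass the low-count filter. S100A9 went from 12.7 ± 2.90 to 5.58 ± 1.94 CPM and was called lower (edgeR adjusted p = 0.00170). CXCR2 went from 10.1 ± 1.14 to 7.40 ± 1.37 CPM and did not pass (edgeR adjusted p = 0.0540). Fibroblast and stellate markers (7 of 8, LUM at 0) summed to 19.2 to 20.4 and 21.3 to 24.1 CPM. Macrophage markers (6 of 10, C1QA, C1QB, C1QC and VSIG4 at 0) and endothelial markers (6 of 7, CLEC4M at 0) stayed at or below 1.29 CPM in every library. The part of these cells in the AP-1 differences was not tested. Of the 13 colorectal epithelial markers, EPCAM, KRT8, KRT18, KRT19, CDH1, CDX2 and VIL1 passed the low-count filter, and KRT20, CDX1, CDH17, LGALS4, CEACAM5 and GPA33 did not. Of the 7 tested, 3 were lower (EPCAM, KRT8 and KRT19), 2 higher and 2 did not pass. VIL1, the villin gene, rose from 3.18 ± 0.821 to 36.7 ± 1.19 CPM and CDX2, an intestinal transcription factor gene, from 47.2 ± 4.18 to 59.8 ± 5.40 CPM. The sum over the list, held mostly by keratins and EPCAM, was 2410.4 to 2799 CPM in sgCtrl and 2027 to 2080.3 CPM in sgITPR3. In bulk RNA, fewer expressing cells and less RNA per cell cannot be told apart.

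Other bZIP genes were called about as often as genes at large. Of 30 partners and relatives tested, 4 were called lower, 5 higher and 21 did not pass, against 11.9% lower and 11.6% higher of all tested genes. Their median log2 fold change was -0.04. CEBPD, an acute-phase C/EBP factor, rose from 104 ± 5.28 to 156 ± 5.77 CPM (log2 fold change 0.59, edgeR adjusted p = 2.29e-05). DDIT3, the stress factor CHOP, rose from 46.7 ± 5.20 to 61.9 ± 2.14 CPM, and NFE2L1, a CNC factor of proteasome genes, from 57.4 ± 1.99 to 69.9 ± 2.04 CPM. CREB3 fell from 60.1 ± 0.668 to 49.9 ± 0.484 CPM. JDP2, a repressor that pairs with Jun proteins, was named after its value was seen. It rose from 10.3 ± 1.17 to 13.5 ± 0.805 CPM (log2 fold change 0.39, edgeR adjusted p = 0.0332).

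Genes upstream of AP-1 mostly did not pass. Of 24 tested MAP kinase cascade genes, 4 were lower, 3 higher and 17 did not pass (median log2 fold change -0.08), near the shares of 11.9% and 11.6% over all tested genes. MAPK13, a p38 kinase, fell from 55.3 ± 6.09 to 34.9 ± 4.42 CPM and MAP2K1, encoding the ERK activator MEK1, from 33.0 ± 1.76 to 26.0 ± 1.56 CPM. MAPK7, encoding ERK5, rose from 15.2 ± 1.83 to 22.0 ± 1.37 CPM, and MAP3K20, a stress kinase gene, from 101 ± 4.73 to 128 ± 7.81 CPM. Of 9 serum response and cofactor genes, 1 was called, near the 11.9% of all genes called lower. It was ELK3, a ternary complex factor, which fell from 99.3 ± 11.0 to 57.8 ± 3.47 CPM (log2 fold change -0.78, edgeR adjusted p = 1.60e-05). SRF itself had a log2 fold change of -0.21 (edgeR adjusted p = 0.180).

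Of 14 genes for protein turnover of AP-1 and decay of its mRNAs, 2 were lower, 0 higher and 12 did not pass (median log2 fold change -0.09), against 11.9% lower and 11.6% higher of all tested genes. Those that fell encode proteins that bind AU-rich elements. ZFP36L1 went from 1510.3 ± 56.4 to 973 ± 106 CPM (log2 fold change -0.63, edgeR adjusted p = 4.68e-05). ZFP36 went from 26.1 ± 7.33 to 14.3 ± 6.67 CPM with overlapping groups. FBXW7, a ubiquitin ligase subunit that targets JUN, had a log2 fold change of 0.18 (edgeR adjusted p = 0.102).

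Genes known as AP-1 targets included strong falls of laminin and urokinase genes. Of 22 listed, 13 passed the low-count filter. Of these 6 were lower, 1 higher and 6 did not pass, against 11.9% lower and 11.6% higher of all tested genes, with a median log2 fold change of -0.22. LAMB3 and LAMA3, laminin chain genes, had log2 fold changes of -2.12 and -0.92, and the urokinase PLAU and its receptor PLAUR of -2.69 and -1.18. The member that rose, HBEGF, an EGF receptor ligand, went from 10.1 ± 0.979 to 17.8 ± 2.84 CPM and was named after its value was seen. The collagenase and stromelysin genes MMP1, MMP3 and MMP10 had 1, 1 and 3 counts over all 6 libraries.

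Other immediate early genes went both ways. Of 28 tested, 10 were lower, 6 higher and 12 did not pass, with a median log2 fold change of -0.13, where all tested genes had 11.9% lower and 11.6% higher. KLF6 and KLF2, zinc finger factors, had log2 fold changes of -1.09 and -0.98, and RHOB, a small GTPase gene, of -0.58. CCN2, a matricellular protein gene, rose from 2.03 ± 0.521 to 5.27 ± 0.751 CPM. Among those named after their values were seen, EGR1 and IER3 fell, with log2 fold changes of -0.25 and -0.43. NR4A1, EGR2 and ARC, also named so, rose, with log2 fold changes of 0.47, 0.78 and 0.78. EGR2 and ARC were low, at 5.62 ± 0.672 and 5.98 ± 1.21 CPM in sgCtrl. Heat shock genes, which dissociation of tissue can also raise, included 0 lower, 1 higher and 11 that did not pass among 12 tested (median log2 fold change 0.14), against the same shares of all genes. HSPB1, the one called, rose from 788 ± 69.8 to 923 ± 59.1 CPM.

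**Figure D4:**
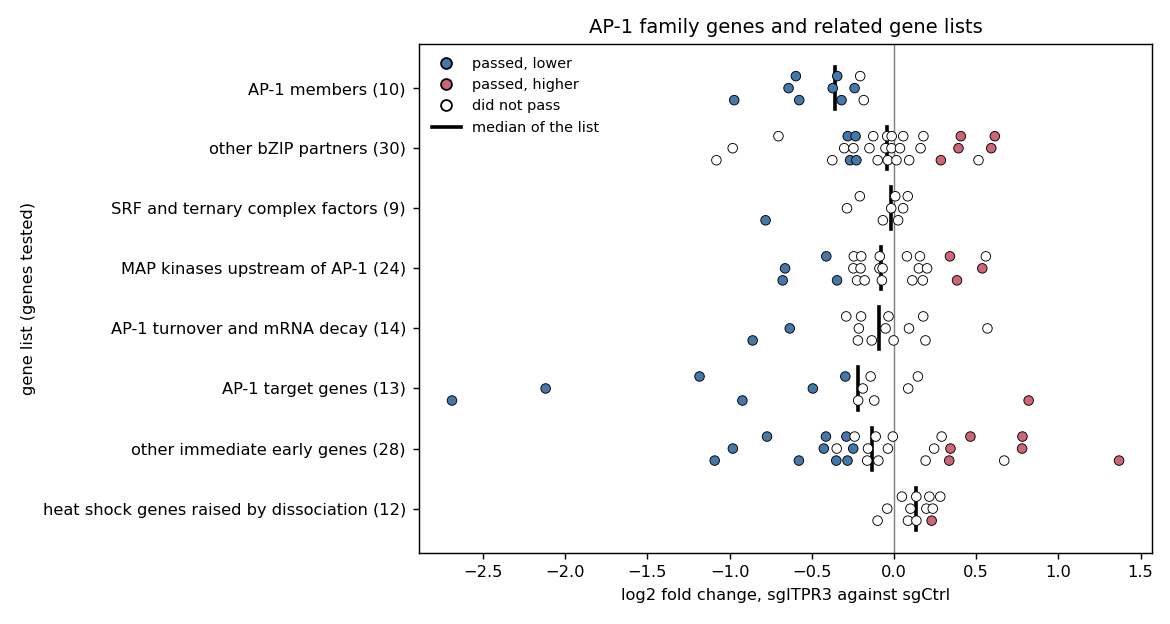
Log2 fold change, sgITPR3 against sgCtrl (horizontal axis), of each tested gene in the AP-1 family and 7 related lists; blue points passed as lower, red as higher, white did not pass, and black bars are medians. The AP-1 median is -0.36, whereas the lists of other bZIP genes and of heat shock genes have medians of -0.04 and 0.14.

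Genes with a pattern most like FOS and FOSL1 were sought among 10632 genes averaging 5 CPM or more, by the root mean square difference between log2 CPM profiles centred over the 6 libraries. Closest to FOS were GIPC1, CAB39 and SHKBP1, at 0.035, 0.042 and 0.057. Closest to FOSL1 were DUSP5, an ERK phosphatase gene that ERK itself induces, KLF2 and RELB, at 0.048, 0.071 and 0.072. Among the 9 other members, a far smaller set, the nearest to FOS was MAFK, at 0.14, and the nearest to FOSL1 was JUND, at 0.20. DUSP5 went from 69.3 ± 11.0 to 34.7 ± 2.67 CPM.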

How the data were processed

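RNA was measured in 6 libraries of polyadenylated RNA made with the Lexogen 3' FWD kit, per the labels' protocols. The values are the gene counts as deposited by the authors. Per the submitters' processing notes, reads were aligned to GRCh38 with STAR 2.6.0a and counted with featureCounts 1.6.3, with DESeq2 also named. Not given in the sources used here are the annotation release, strand setting, and the handling of mouse reads and multiply aligned reads. Library totals were 19140055 to 23943797 counts, which bounds the precision of low genes (1 count is 0.0405 to 0.0538 CPM).

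Symbols came from a table of gene identifiers (58876 of 58884 matched) and positions from GENCODE release 29 on GRCh38. Low-count genes were removed with filterByExpr (minimum count 10), and the rest scaled by TMM and compared with edgeR 4.0.16 in R 4.3.3, without covariates. The SE is the absolute log2 fold change over the square root of F. Levels are CPM with mean ± SD over 3 libraries per group. Groups follow the sample titles. Within a group log2 CPM correlated at 0.989 to 0.994, and the counts of no pair were alike within sampling noise.

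The members and lists were chosen with earlier results of these data known. The rule for names covers the 10 members, ITPR3, up to 4 genes with the smallest p per list, and 3 genes each with a profile like FOS and FOSL1. The variant TGACATCA was added after the promoters were seen. Not every gene named by this rule is reported, and 1 marker list is reported only in part. Alternatives were RLE scaling, scaling without chromosome 19, 2 other filters, the replicate number as a block, ALB as a covariate, DESeq2 1.42.0, limma-voom (limma 3.58.1) and leaving out each library. The procedure was tested on simulated data. Ratios used scipy 1.17.1.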

Additional observations from a re-analysis of the deposited data

How the results depend on the processing

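Over 14 alternative fits the 10 members gave 140 log2 fold changes, all below 0, and 128 of the 140 kept their side of the threshold. The number of members called lower was 5 with ALB as a covariate, against 8, and from 6 to 9 when each library was left out. The number called higher was 0 in every fit. Over all genes, ALB as a covariate gave 982 lower and 1000.0 higher calls, against 1882 and 1835, and leaving out each library gave 1196 to 2140.0 lower and 1135 to 2121 higher calls, with the fewest without sgITPR3 replicate 2. Why these counts changed was not tested. Fits without a library had fewer samples, whereas the fit with ALB kept all 6 libraries. FOS, FOSL1, JUNB, JUND and MAFK passed in all 14. The sample titles do not say whether same-numbered libraries were paired. Deviations of same-numbered libraries correlated at -0.05, 0.04 and 0.12, and those of unlike-numbered libraries at -0.14 to 0.11. With 3 libraries per group, these values cannot decide whether the samples were paired. With the replicate block 8 members were called lower, 0 higher, and 1981 and 1896 of all genes. Both groups have 3 libraries, so no exact test of a ratio can reach a p under 0.10. Each member had over 500 counts in every library. How far counting noise sets the spread between libraries was not worked out for each member. That spread was smallest for MAFF in sgITPR3, with an SD of 2.78% of the mean.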

Other observations

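Single libraries set part of the composition of the Fos genes. sgITPR3 replicate 3 had the lowest FOS level of its group (567 CPM) together with the highest FOSB (331 CPM), FOSL1 (30.0 CPM) and FOSL2 (78.5 CPM). FOSB was 32.9% of Fos gene CPM there, against 27.5% and 27.3% in sgITPR3 replicates 1 and 2 and 24.1% to 25.9% in sgCtrl. The same library had the highest sgITPR3 value for 7 of the 10 members. In sgCtrl, replicate 1 was highest for 6 members and replicate 3 for 4. The matching shares over all tested genes were not counted.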
